A study of Homo sapiens with 30 samples.

Results

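Pladienolide B (PB) was compared with its vehicle DMSO in eHAP FNLS control cells, using the 6 control libraries of the 30 in the series. They were taken by their genotype label: 3 PB libraries and 3 DMSO libraries. eHAP is a human cell line that descends from a chronic myeloid leukaemia line and grows as an adherent culture, and FNLS is a cytosine base editor that the cells carry. The study edited splicing factors in these cells and asked how the edited lines responded to PB, with poly(A)-selected RNA sequenced after 3 h in 2 nM PB or in DMSO.

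The control cells had been transduced with a non-targeting sgRNA, and their 3 replicates came from 1 line rather than from separate clones. The other 4 genotypes were PHF5A 2xTL, a 6-nucleotide insertion made with the guide PHF5A_6, SF3B1 T1080I made with SF3B1_166, SUGP1 E554K made with SUGP1_238, and SUGP1 G603N made with SUGP1_188. Each of those was represented by 3 monoclonal lines, each given PB and DMSO in the same way. All the cells carried the base editor. The fit spanned all 30 libraries, so the spread behind each p-value came from cultures of the 1 control line together with the monoclonal lines of the edited genotypes. With the control libraries alone, 3642 genes were called.

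PB binds SF3b, the part of the U2 small nuclear ribonucleoprotein that holds the branch-point adenosine of an intron, in a pocket formed by SF3B1 and PHF5A. Binding stalls spliceosome assembly, so that introns can be retained and exons skipped, and many of the altered transcripts are then degraded or kept in the nucleus. SUGP1, which carries a G-patch domain, assists SF3B1 when the branch point is chosen.

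The deposited values were estimated counts per gene, which summed to 37.3, 44.2 and 42.9 (in units of 1e+06 counts) in the PB libraries and to 40.5, 52.3 and 44.8 in the DMSO libraries. Between 23291 and 25246 genes reached 10 counts in a PB library, against between 22795 and 26075 in a DMSO library. Mitochondrially encoded genes took between 11.3% and 12.8% of the counts in PB and between 10.6% and 11.3% in DMSO. Summed levels of haematopoietic markers were between 13.1 and 14.8 CPM in PB, where CPM are counts scaled to 1e+06 per library, and between 18.0 and 22.8 CPM in DMSO, while mesenchymal markers summed to between 586.0 and 663 CPM in PB and between 606 and 662 CPM in DMSO. Epithelial markers, of which 6 of 8 passed the filter on low counts, summed to between 41.2 and 46.4 CPM in PB and between 33.4 and 42.5 CPM in DMSO. No tested marker of these lists was at 0 throughout. Neural markers summed to between 907 and 1080.4 CPM in PB and between 743 and 1254 CPM in DMSO. Of 13 haematopoietic markers 10 were tested. KIT, the stem cell factor receptor, made up most of their sum, averaged 9.86 CPM in PB and 17.4 CPM in DMSO and was the 1 called, while 8 of the 10 had a log2 fold change above 0 and their median was 0.93. In bulk RNA of this kind, fewer cells of a type and less RNA per cell cannot be told apart.

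Response across all genes was measured as the log2 fold change of PB over DMSO within replicate pairs, with edgeR's quasi-likelihood test and Benjamini-Hochberg adjustment over 31444 genes. At an adjusted p under 0.05, 809 genes (2.57% of those tested) were higher and 2286 (7.27%) were lower in PB, 9.84% in all. The changes were mostly modest: the median was 0.59 among the higher genes and -0.61 among the lower, and 718 genes changed at least 2-fold, 281 of them higher and 437 lower. All 3 pairs had the same sign for 3086 of the 3095 called genes (99.7%), and for 2872 (92.8%) the PB and DMSO levels did not overlap. Over all tested genes these shares were 44.0% and 25.3%. The called genes were chosen by a test on these same libraries, which favours both, so the agreement is no separate support for the calls. The median over all tested genes was 0.04. Of the 11918 genes averaging at least 4 CPM, 4.67% were higher and 16.6% lower, with a median of -0.03, and the gene lists below are read against these shares. The shares varied with level and exon number, as given below, and the lists were not matched to other genes for either.

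Calls depended on how the pairs were used. Without the replicate block 345 genes (1.1%) were higher and 1050 (3.34%) lower, 4.44% in all. Leaving out 1 pair at a time gave between 355 and 576 higher and between 1233 and 1641 lower. Of the genes called with all pairs, 194 higher and 732 lower kept their call in all 4 of these fits. The genes described below as having risen or fallen kept theirs in all 4 unless an exception is given.

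Response differed by gene structure. Among protein-coding genes averaging at least 4 CPM, 4.42% were higher and 17.7% lower, with a median log2 fold change of -0.06 over 10503 genes. Of the 159 genes with a single exon, which need no splicing, 17.6% were higher and 0% lower, with a median of 0.22. Genes of 2 exons were higher in 6.82% and lower in 11.7% of cases, and those of 6 to 10 exons in 4.53% and 13.3%. Genes of more than 20 exons, 1620 in number, were higher in 1.30% and lower in 27.2%, with a median of -0.18. The share lower among these was 12% without the replicate block and between 16.4% and 20.9% with 1 pair left out. The share higher among single-exon genes was 3.77% without the block and between 6.29% and 7.55% with 1 pair left out. The single-exon bin includes mitochondrially encoded genes. With these genes left out of the fit, the share higher was 24.0% with the block and all pairs.

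The pairs gave this order separately: medians of single-exon genes were 0.24, 0.21 and 0.15 in pairs 1 to 3, against -0.12, -0.14 and -0.26 for genes of more than 20 exons. Gene size gave gradients of like steepness. In 5 equal bins of genomic span, from short to long, the share lower was 7.95%, 13.6%, 19.3%, 25.2% and 22.7%, and in 5 such bins of transcript length 7.13%, 15%, 18.5%, 24.1% and 24%. The parts of exon number, span and length were not separated by a test.

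Splits of the exon bins by level and by genomic span were added after these values were seen. The share lower of genes of more than 20 exons was 27.5% from 4 to 16 CPM, 37.5% from 16 to 64, 20.2% from 64 to 256 and 9.76% from 256 CPM upward, where their median was 0.02. For genes of 6 to 10 exons it was 19.6%, 15.6%, 4.52% and 0% in the same bands. The share lower was thus higher in the bin of most exons in each band, and smallest among the most abundant genes. Within the shortest genomic spans the share lower stayed between 9.62% and 12.2% from 2 to more than 20 exons. Among genes of the longest spans it was 10.0% for 3 to 5 exons and 29.6% for more than 20. Whether the gradient differs between short and long genes was not tested.

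**Figure D1:**
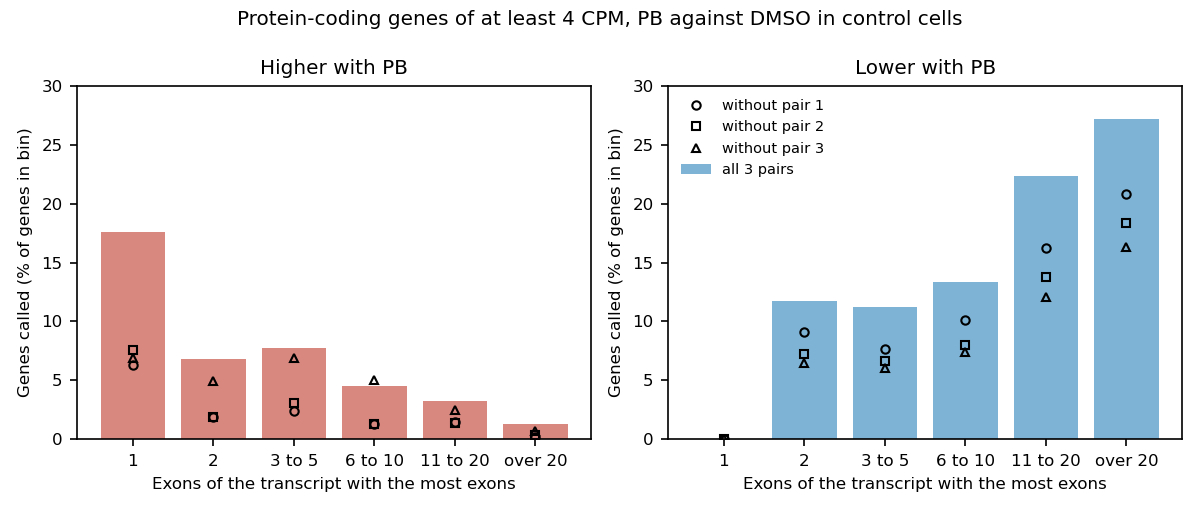
Protein-coding genes of at least 4 CPM by the number of exons of their transcript with the most exons (x axis), with the percentage of genes called higher (left panel) and lower (right panel) in PB. Bars use all 3 pairs and symbols leave out 1 pair each. With all pairs the share lower goes up from 0% at 1 exon to 27.2% above 20 exons, and the share higher comes down from 17.6% to 1.30%.

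Genes lying inside introns of other genes were also examined. Of 2149 noncoding genes within an intron on the same strand, 54 were higher (2.51%, near the 2.57% of all genes) and 9 lower in PB, and their median was 0.35. Of 2523 noncoding genes in introns on the opposite strand 41 were higher (1.63%) and 8 lower, with a median of 0.33. Of 4882 that overlapped no other gene 36 were higher (0.737%) and 66 lower, with a median of 0.25. The medians of the 3 kinds thus lay close together. Among genes of at least 1 CPM, the shares higher were 7.38% in same-strand introns, 4.33% in opposite-strand introns and 2.09% without overlap. Noncoding genes that overlapped another gene in other ways were higher in 7.84% and lower in 10.0% at that level. Of all 4230 of these, 120 were higher (2.84%) and 138 lower, with a median of 0.08. A high share higher was thus not particular to introns, and these shares were not tested against each other. Pair medians of the same-strand intronic kind were 0.09, 0.22 and 0.63, so the size of the shift differed between pairs. How strand was treated in counting is unknown here, and reads over such a gene cannot be told apart from reads of an unspliced host intron.

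ENSG00000269688, a sense-overlapping RNA within HNRNPL, had 21.4, 23.8 and 27.1 CPM in PB, against 2.19, 3.71 and 2.06 CPM in DMSO. All PB libraries were far above all DMSO libraries, a log2 fold change of 3.21 ± 0.25 (SE, adjusted p 1.17e-09, edgeR). RPA4, an intronless relative of the replication protein A subunit RPA2 that lies within DIAPH2, rose to 5.19, 6.18 and 7.97 CPM in PB, against 1.38, 1.82 and 1.43 CPM in DMSO. The pseudogene PAIP1P1 within TRIM26 had 2.96, 3.03 and 3.48 CPM in PB, against 0.117, 0.113 and 0.179 CPM in DMSO. DGCR11, within DGCR2, rose by 1.43 on the log2 scale while its host had a log2 fold change of -0.75 (adjusted p 3.69e-05, edgeR). Over all 61 genes in same-strand introns called higher with all pairs, many of which lost the call in other fits, 5 hosts were higher, 5 lower, 45 not called and 6 not tested.

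Small nucleolar RNAs (snoRNAs), which guide chemical modification of ribosomal RNA and are mostly cut from introns of host genes, were measured through whatever poly(A)-selected reads covered them. Of 129 tested, 7 were higher (5.43%, against 2.57% of all tested genes) and 0 lower. Their median was 0.82 (0.91 for the 98 in same-strand introns and 0.63 for the 31 elsewhere, of which 0 were called). Pair medians were 0.53, 0.78 and 1.06. Their median level was only 0.24 CPM. Other short RNAs were shifted upward too, with a median of 0.40 for microRNAs and 0.31 for the whole small RNA class, snoRNAs included. Counts over all snoRNA genes took 0.00995%, 0.00979% and 0.0101% of the total in PB, against 0.00734%, 0.00613% and 0.00513% in DMSO. All 3 PB libraries were above all 3 DMSO libraries. The 7 were picked out after their values were seen. The box C/D snoRNAs among them whose transcript holds both TGATGA and CTGA are shown with these letters, box C and the last box D, in capitals, from the GENCODE release 29 transcripts on hg38.
SNORD69: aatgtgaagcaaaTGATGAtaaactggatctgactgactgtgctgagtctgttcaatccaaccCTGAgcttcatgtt
SNORD6: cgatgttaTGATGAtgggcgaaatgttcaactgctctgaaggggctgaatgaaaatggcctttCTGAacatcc
SNORD94: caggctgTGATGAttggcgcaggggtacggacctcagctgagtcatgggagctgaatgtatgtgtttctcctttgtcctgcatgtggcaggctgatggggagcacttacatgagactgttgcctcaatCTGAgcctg
SNORD82: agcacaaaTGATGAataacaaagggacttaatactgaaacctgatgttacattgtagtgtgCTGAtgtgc

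These letters were searched on the RNA strand. Of 955 snoRNA transcripts in the annotation, 36.0% hold TGATGA, 71.2% hold CTGA and 33.5% hold both. SNORD69 lies in an intron of GNL3 at chr3:52692736-52692812 (plus strand), SNORD6 in TAF1D at chr11:93731502-93731574 (minus), SNORD94 in PTCD3 at chr2:86135870-86136006 (plus) and SNORD82 in NCL at chr2:231460371-231460440 (minus).

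SNORD69 had 3.96, 3.93 and 3.73 CPM in PB, against 1.03, 1.24 and 1.5 CPM in DMSO, without overlap (log2 fold change 1.64 ± 0.38 SE, edgeR adjusted p 0.00448). SNORD19C, in another intron of GNL3, had 4.39, 3.26 and 2.61 CPM in PB, against 0.747, 0.825 and 0.740 CPM in DMSO. SNORD6 had 3.50, 1.90 and 2.79 CPM in PB, against 0.467, 1.09 and 0.762 CPM in DMSO. The groups did not overlap for any of these, but each lost its call with pair 1 left out, and SNORD6 also with pair 3 left out. SNORA3B in RPL27A had 2.48, 2.64 and 2.40 CPM in PB, against 0.467, 0.957 and 0.986 CPM in DMSO, and was not called without pair 1 or without pair 2. SNORD94 had 2.13, 1.48 and 2.06 CPM in PB, against 0.700, 0.525 and 0.740 CPM in DMSO, and was not called with any 1 pair left out. The host GNL3 averaged 197.9 CPM in both groups (adjusted p 0.999, edgeR). SNORD62A had 0.996, 1.11 and 1.47 CPM in PB, against 0.0467, 0.0563 and 0.583 CPM in DMSO, and SNORD82 had 1.18, 0.948 and 0.550 CPM in PB, against 0.280, 0.0750 and 0.0224 CPM in DMSO. Both lost their calls without the block and without pair 1 or pair 2, and SNORD82 also without pair 3 and with mitochondrial genes left out of the scaling.

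**Figure D2:**
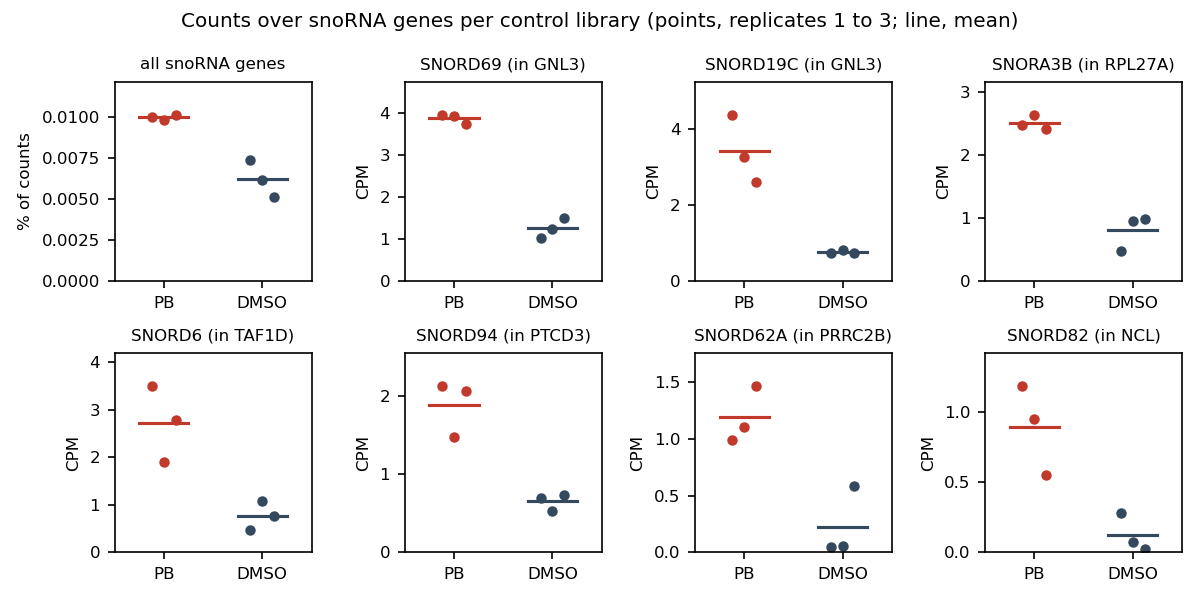
Share of all counts on snoRNA genes (first panel, percent) and level in CPM of the 7 called snoRNAs in each PB and DMSO library of the control cells, with lines at the means. Each PB library lies above each DMSO library for all 7, as in SNORD69 with 3.96, 3.93 and 3.73 CPM in PB against 1.03, 1.24 and 1.5 CPM in DMSO.

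Many host genes of snoRNAs were higher as well. Of 25 tested, 10 were higher and 1 lower, with a median of 0.34. Without the block 4 were higher and 0 lower, and with 1 pair left out between 5 and 8 were higher. SNHG1 (chr11:62851988-62855914), a long noncoding RNA that carries several box C/D snoRNAs in its introns, had 425, 391.9 and 390.2 CPM in PB, against 174, 170.0 and 186 CPM in DMSO. The groups were far apart, a log2 fold change of 1.19 ± 0.09 (SE, adjusted p 5.54e-10, edgeR). TAF1D, a subunit of the RNA polymerase I factor SL1, had 269.8, 279.9 and 275 CPM in PB, against 131, 151 and 134 CPM in DMSO. SNHG5 rose by a log2 fold change of 1.11 and SNHG17 by 0.83, while SNHG4 had a log2 fold change of -0.38, a call it lost without the block (adjusted p 0.131, edgeR) and without pair 1 or pair 2.

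Splicing regulators of the SR family moved mostly upward. Of 28 SR proteins and their kinases, 13 were higher and 2 lower (7 and 1 without the block, between 4 and 10 and between 0 and 2 with 1 pair left out), with a median of 0.28. TRA2B, an SR-like activator of exon inclusion, had 501, 509 and 513 CPM in PB, against 353, 371 and 419.8 CPM in DMSO. Its paralog TRA2A had 199, 192 and 203 CPM in PB, against 134, 133 and 156 CPM in DMSO. SREK1, SRRM1 and BCLAF1 rose by 0.44, 0.47 and 0.46. SON, a nuclear speckle protein, had a log2 fold change of 0.33 that was not called without the block, without pair 1 or without pair 2. The kinases CLK2 and SRPK2 had log2 fold changes of -0.43 and -0.37 (adjusted p 0.00851 and 0.00981, edgeR). CLK2 lost its call without the block and without pair 3, and SRPK2 without pair 1 and without pair 3.

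Core spliceosome genes split. PRPF39, a U1 snRNP factor, had 93.6, 94.2 and 88.2 CPM in PB, against 47.9, 52.4 and 49.6 CPM in DMSO, a log2 fold change of 0.88 ± 0.10 (SE, adjusted p 3.14e-07, edgeR). Of 27 U2 snRNP and branch-point factors, 4 were higher and 5 lower (1 and 4 without the block). DDX42, a helicase that binds SF3b, fell to 136, 139.9 and 147 CPM in PB, against 217, 235 and 269 CPM in DMSO. SF1, which first recognises the branch point, had 385, 381 and 394 CPM in PB, against 493, 546 and 656 CPM in DMSO. U2SURP and RBM5 fell by 0.56 and 0.59. The target SF3B1 was higher by 0.36, a call it lost without pair 1 or without pair 2. DDX39B, an export and spliceosome helicase, rose by 0.56.

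**Figure D3:**
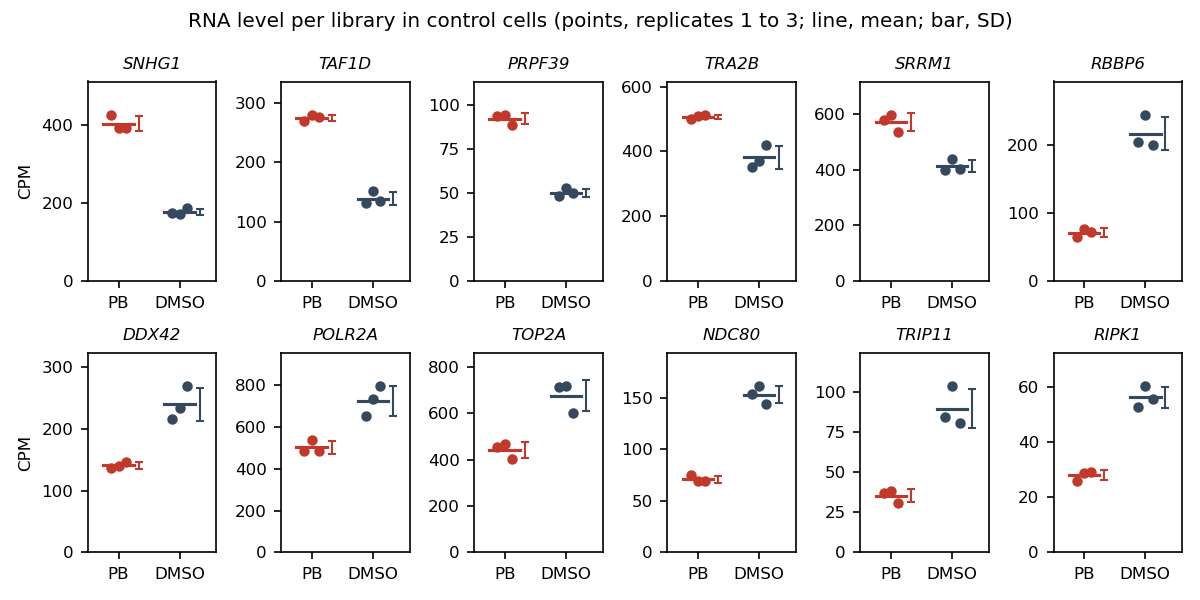
Level in CPM of 12 named genes in each control library, PB left of DMSO, with lines at the means and bars of 1 SD. The PB libraries of RBBP6 lie between 64.5 and 77.0 CPM, below DMSO libraries of 201 to 245 CPM, while SNHG1 lies between 390.2 and 425 CPM in PB, above 170.0 to 186 CPM in DMSO.

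Several genes that make the 3' end of mRNA fell. RBBP6, a cleavage and polyadenylation factor, had 64.5, 77.0 and 71.7 CPM in PB, against 205, 245 and 201 CPM in DMSO. That was a log2 fold change of -1.61 ± 0.10 (SE, adjusted p 2.51e-11, edgeR) at chr16:24537693-24572863. PAPOLG, a nuclear poly(A) polymerase, had 16.5, 15 and 15 CPM in PB, against 36.0, 35.5 and 33.3 CPM in DMSO. WDR33 and PCF11 fell by 0.59 and 0.48. Over the list of 20 cleavage and polyadenylation genes, 1 was higher and 5 lower (25%, against 16.6% of all genes of at least 4 CPM). In mRNA turnover, DCP1B, a decapping cofactor, fell by 1.52 and CNOT2, a deadenylase scaffold, by 0.66, and 5 of 24 genes of the deadenylation and decapping list were lower and 0 higher (3 lower without the block).

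Genes of the transcription machinery went both ways. Of 12 RNA polymerase II subunits 2 were higher, POLR2L and POLR2F, and 1 was lower, POLR2A; 11 had a log2 fold change above 0 and the median was 0.20. Both higher calls were lost without the block and without pair 1 or pair 2. POLR2A, the largest subunit of RNA polymerase II, had 486, 538 and 487 CPM in PB, against 653, 733 and 796 CPM in DMSO. CDK9, the kinase of P-TEFb, had 18.1, 19.6 and 16.3 CPM in PB, against 33.5, 35.2 and 42.7 CPM in DMSO. The groups did not overlap for either gene. AFF1 of the super elongation complex fell by 0.86 and CTR9 of the PAF complex by 0.44, within 7 lower and 1 higher of 30 elongation genes (4 and 0 without the block). MED29 and MED1 fell by 0.96 and 0.60, within 6 lower and 1 higher of 32 Mediator subunits, a share lower of 18.8% that is near the 16.6% of all genes. Of 22 ATAC and SAGA acetyltransferase genes 7 were lower and 0 higher, TADA2A by 0.75. Among 32 Polycomb genes 7 were lower and 1 higher (4 and 1 without the block, between 3 and 5 lower with 1 pair left out): SUZ12 fell by 0.58 and CBX8 rose by 0.81.

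Nuclear noncoding RNAs MALAT1 and NEAT1 were called lower with the block and not without it. MALAT1, abundant in nuclear speckles, had 1324, 1405 and 1125 CPM in PB, against 1795, 2114 and 1669 CPM in DMSO (log2 fold change -0.53, adjusted p 0.000307, edgeR; 0.138 without the block). NEAT1, added after its value was seen, averaged 73.0 ± 8.48 CPM in PB and 99.3 ± 10.1 CPM in DMSO (SD, n = 3 each, adjusted p 0.00192 with edgeR, 0.517 without the block), and was also not called without pair 2.

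Many cell division genes fell. Of 37 mitotic genes 15 were lower and 2 higher (8 and 2 without the block), with a median of -0.29 and pair medians of -0.17, -0.25 and -0.25. NDC80, which ties kinetochores to microtubules, had 74.6, 69.2 and 68.9 CPM in PB, against 153, 161 and 144 CPM in DMSO, a log2 fold change of -1.11 ± 0.09 (SE, adjusted p 4.7e-09, edgeR). ANLN, needed for cytokinesis, had 79.8, 78.6 and 62.6 CPM in PB, against 156, 157 and 136 CPM in DMSO. TOP2A, the DNA decatenating topoisomerase, had 455, 467 and 401 CPM in PB, against 713, 718 and 601 CPM in DMSO. AURKA fell by 0.55 and ASPM by 0.52. KIF18B, a microtubule depolymerase, moved the other way and rose by 0.63. Of 43 kinetochore genes 14 were lower and 1 higher (8 and 0 without the block, between 6 and 11 lower and 0 higher with 1 pair left out). Of 36 centriole genes 12 were lower and 0 higher (6 lower without the block), among them SASS6 by 0.96 and CENPJ by 0.56. Median levels were 118, 52.2 and 49.7 CPM for the mitotic, kinetochore and centriole lists. Protein-coding genes were lower in 21.4% from 16 to 64 CPM and in 11.8% from 64 to 256 CPM. Among those of more than 20 exons these shares were 37.5% and 20.2%.

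Replication and DNA repair lists held more lower than higher genes, as did all genes of at least 4 CPM (16.6% lower and 4.67% higher). Of 50 replication genes 11 were lower (22%) and 0 higher, with a median of -0.07, near the values of all genes. CDC6, which loads the replicative helicase, had 71.7, 69.0 and 58.1 CPM in PB, against 121, 118 and 121 CPM in DMSO. POLD3 and ORC5 fell by 1.01 and 0.98. Of 37 Fanconi and homologous recombination genes 12 were lower and 0 higher (7 lower without the block), and 35 had a log2 fold change below 0. Their median was -0.25, and -0.27, -0.28 and -0.26 in pairs 1 to 3. The median level of this list was 32.9 CPM. Protein-coding genes of 16 to 64 CPM were lower in 21.4%, with a median of -0.08. At that level those of 11 to 20 exons were lower in 27.5% and those of more than 20 exons in 37.5%. BRIP1, RBBP8 and EME1 fell by 0.68, 0.71 and 0.88. Of 46 excision and mismatch repair genes 12 were lower and 2 higher (8 and 0 without the block, between 7 and 10 lower and 0 higher with 1 pair left out), GTF2H1 falling by 0.93 and ERCC4 by 1.03. Of 20 ATM and ATR pathway genes 7 were lower and 3 higher (4 and 2 without the block, between 3 and 5 lower with 1 pair left out). H2AX, the histone phosphorylated at DNA breaks, had 271, 261 and 291 CPM in PB, against 169.7, 178 and 219 CPM in DMSO, and RNF168, the ubiquitin ligase that acts after it, rose by 0.66.

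**Figure D4:**
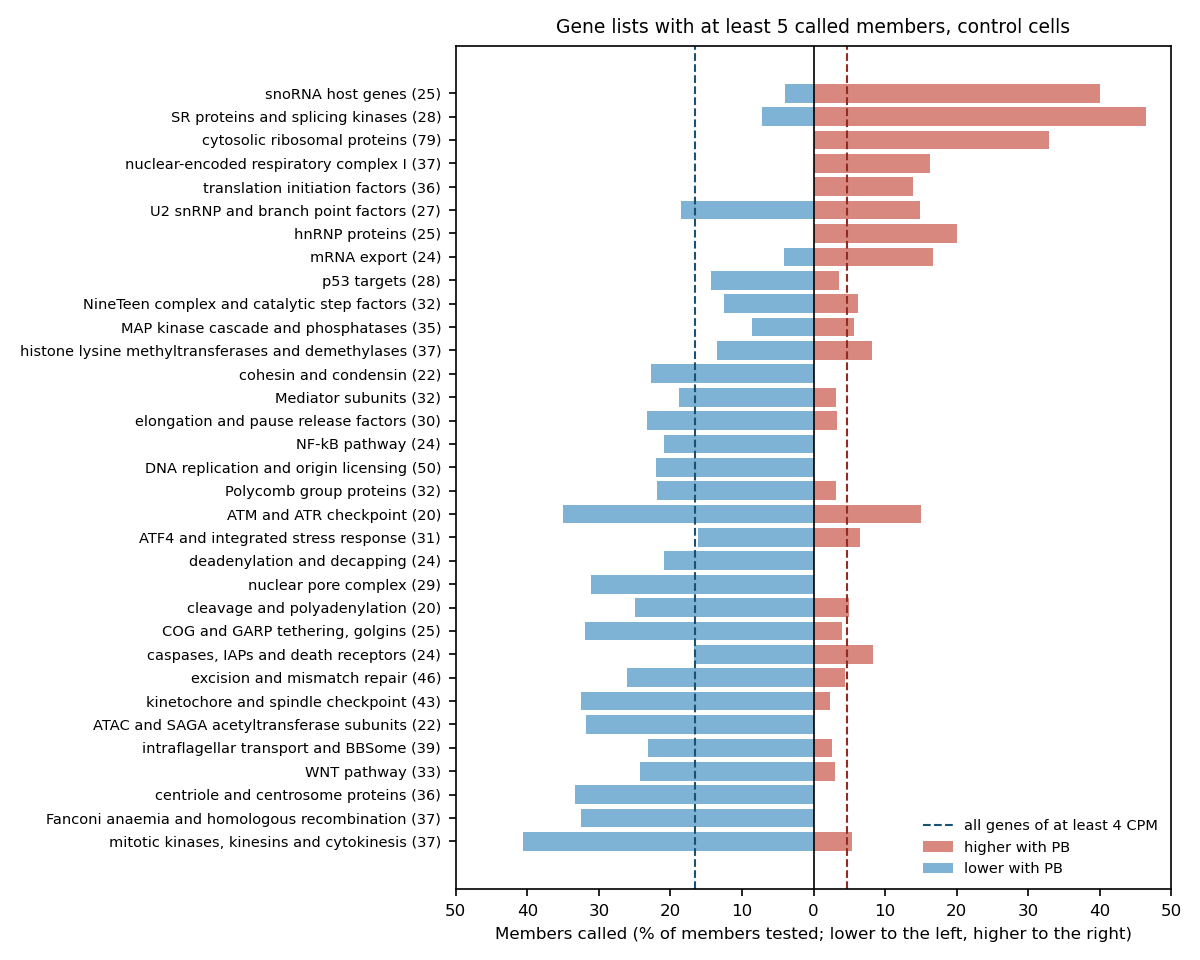
Percentage of members called lower (to the left) and higher (to the right) in PB for each gene list with at least 5 called members, ordered by median log2 fold change, with dashed lines at 16.6% lower and 4.67% higher for all genes of at least 4 CPM. Mitotic genes have 15 lower and 2 higher of 37, cytosolic ribosomal proteins 26 higher and 0 lower of 79.

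Membrane traffic lists differed. Of 22 genes of the COPI and COPII vesicle coats 2 were lower and 0 higher (9.09% lower, below the 16.6% of all genes; 0 without the block), with a median of 0.04. TRIP11, a golgin, had 37.2, 38.2 and 30.5 CPM in PB, against 84.7, 104 and 80.5 CPM in DMSO, a log2 fold change of -1.34 ± 0.10 (SE, adjusted p 5.54e-10, edgeR). GOLGA5 fell by 0.90 and GCC1 rose by 0.53, within 8 lower and 1 higher of 25 COG complex and golgin genes. Of 29 nuclear pore genes 9 were lower and 0 higher (3 lower without the block, between 4 and 6 with 1 pair left out), NUP58 by 0.96 and NUP35 by 1.09. Of 39 ciliary transport and BBSome genes 9 were lower and 1 higher (4 and 0 without the block, between 3 and 5 lower with 1 pair left out), CLUAP1 by 0.78 and BBS10 by 0.59.

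Death and signalling genes moved singly. RIPK1, a kinase that decides between survival and death at the TNF receptor, had 25.9, 29 and 29.2 CPM in PB, against 52.7, 60.3 and 55.7 CPM in DMSO. CFLAR, an inhibitor of caspase-8, and BCL2L2 each fell by 0.61. BIRC3, an inhibitor of apoptosis, had 3.61, 1.80 and 2.75 CPM in PB, against 0.420, 0.338 and 0.381 CPM in DMSO, and CASP2 rose by 0.48. MCL1 and BCL2L1, whose splicing is known to respond to SF3b inhibitors, were looked up after the other values were seen. MCL1 averaged 164 ± 5.61 CPM in PB and 159 ± 7.33 CPM in DMSO (SD, n = 3 each, adjusted p 0.877, edgeR), and BCL2L1 averaged 47.3 ± 2.01 CPM in PB and 41.9 ± 4.35 CPM in DMSO. Gene counts do not separate isoforms. In WNT signalling 8 of 33 genes were lower and 1 higher (4 and 0 without the block, between 3 and 6 lower with 1 pair left out), FZD4 by 0.97 and TNKS2 by 0.92. KLF15 fell by 1.84, SREBF1 by 1.07 and SLC7A11 by 0.88, and IRF9 and IFI35 rose by 0.95 and 2.04. Of 28 p53 target genes 4 were lower and 1 higher (2 and 0 without the block), near the shares of all genes.

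Ribosomal protein genes were slightly higher. All 79 cytosolic ones had a log2 fold change above 0, with a median of 0.26, and 26 were called higher and 0 lower. Without the block 0 were called, and with 1 pair left out between 2 and 38. Pair medians were 0.38, 0.34 and 0.05, so pair 3 showed little of it. The share higher was 32.9%, at a median level of 558 CPM. Abundant genes shared part of this: protein-coding genes of at least 256 CPM, ribosomal ones included, were higher in 10.7%, with a median of 0.15. The 64 of them with 3 to 5 exons were higher in 21.9%, with a median of 0.23. RPS6 had 1506, 1476 and 1495 CPM in PB, against 1166, 1172 and 1378 CPM in DMSO, and was not called without the block, without pair 1 or without pair 2. Complex I of the respiratory chain had pair medians of 0.30, 0.28 and 0.05, with 6 of 37 genes higher and 0 lower (1 higher without the block, between 1 and 11 with 1 pair left out). The DMSO library of pair 3 stood apart in its share of protein-coding counts, 92.7% against 89.5% and 91.0% in the other DMSO libraries and between 90.4% and 90.8% in PB, and the part of that in these values was not tested. No gene was called among 36 autophagy, 19 glycolysis or 20 tRNA synthetase genes.

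Within each edited genotype, the same fit called 0 genes higher and 1 lower (0.00318%) in PHF5A 2xTL, 3 higher (0.00954%) and 2 lower (0.00636%) in SF3B1 T1080I, 1274 higher (4.05%) and 2483 lower (7.9%) in SUGP1 E554K, and 942 higher (3%) and 2022 lower (6.43%) in SUGP1 G603N. The response in control cells was then set against those of the edited lines by testing the difference itself. Against the mean of PHF5A 2xTL and SF3B1 T1080I, whose edits lie at the SF3b pocket, 202 genes (0.642%) had a higher and 849 (2.70%) a lower log2 fold change in control, 3.34% in all. Of the 809 genes that rose in control, 201 (24.8%) changed more than in the pocket lines and 0 less, and of the 2286 that fell, 849 (37.1%) and 0. Over the genes higher in control, the median was 0.59 in control, 0.03 in PHF5A 2xTL and 0.12 in SF3B1 T1080I, and over the lower ones -0.61, -0.11 and -0.06. The choice of genes by their change in control fixes the control value. It also favours a larger change in control in the counts above, because the difference contains that same control value. Without the block the difference had 59 genes higher (0.188%) and 205 lower (0.652%), 0.84% in all, and with 1 pair left out between 82 and 111 and between 395 and 550.

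RBBP6 averaged 71.1 ± 6.29 CPM in PB and 217 ± 24.4 CPM in DMSO in control (SD, n = 3 each), 181 ± 33 in PB and 216 ± 33.4 CPM in DMSO in PHF5A 2xTL, and 188 ± 7.43 in PB and 232 ± 8.50 CPM in DMSO in SF3B1 T1080I. SIK2, a salt-inducible kinase, had a log2 fold change of -1.51 in control, -0.07 in PHF5A 2xTL and -0.25 in SF3B1 T1080I. PRPF39 rose in SF3B1 T1080I too, by 0.58 (adjusted p 0.0123, edgeR), against 0.88 in control. By number of exons, medians of genes over 20 exons were -0.18 in control, -0.05 in PHF5A 2xTL and -0.02 in SF3B1 T1080I. Medians of single-exon genes were 0.22 in control, 0.00 in PHF5A 2xTL and 0.05 in SF3B1 T1080I, and these differences were not tested. For the 7 snoRNAs no difference from the pocket lines passed the threshold, although the median over 129 was 0.82 in control, 0.20 in PHF5A 2xTL and -0.05 in SF3B1 T1080I.

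Against the mean of the SUGP1 lines no gene passed (0%) with edgeR, 945 had an unadjusted p under 0.05, and DESeq2 called 0 with 1351 unadjusted. A missed threshold does not show equal responses. Medians over the genes higher in control were 0.52 in SUGP1 E554K and 0.50 in SUGP1 G603N, and over the lower ones -0.54 and -0.49. RBBP6 had a log2 fold change of -1.61 in control, -1.41 in SUGP1 E554K and -1.60 in SUGP1 G603N, and SNHG1 of 1.19, 1.34 and 1.22.

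**Figure D5:**
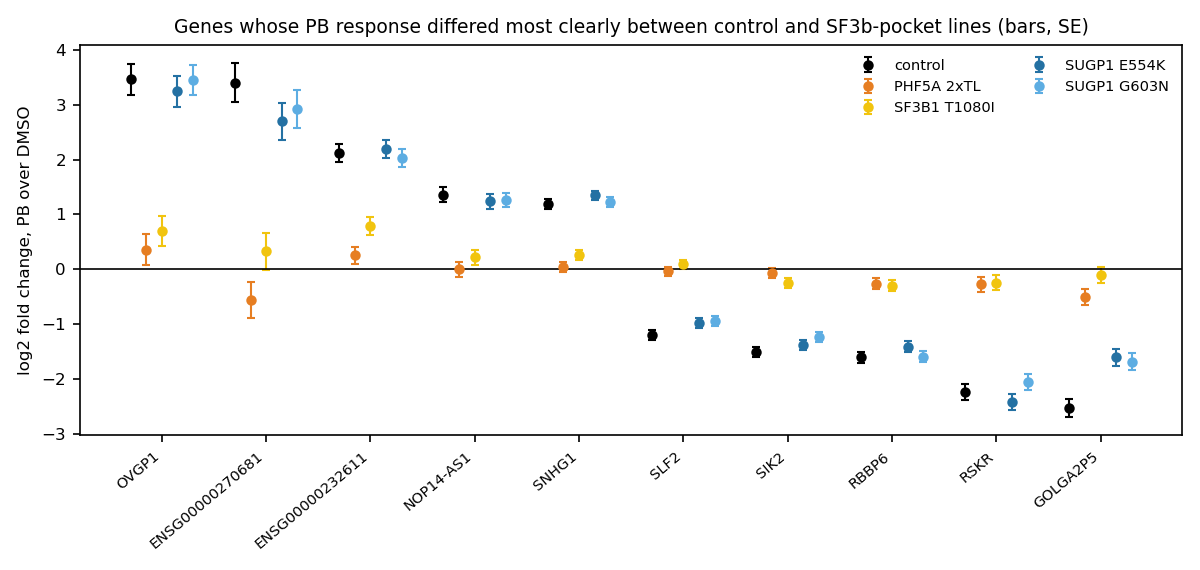
Log2 fold change of PB over DMSO in control and in each edited genotype for the 10 genes with the clearest difference between control and the pocket lines, with bars of 1 SE. RBBP6 lies at -1.61 in control, -0.26 in PHF5A 2xTL, -0.30 in SF3B1 T1080I, -1.41 in SUGP1 E554K and -1.60 in SUGP1 G603N.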

How the data were processed

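The authors deposited 1 table of estimated counts for 61487 genes in 30 libraries, not whole in 65.5% of positive values. Reads were handled with UMI-tools, STAR and SAMtools 1.10 on hg38, per the submitters' processing notes; which program counted them, with which strand setting and annotation, is unknown here. The estimated counts were rounded. edgeR 4.0.16 in R 4.3.3 fitted all 30 libraries with filterByExpr, TMM scaling, quasi-likelihood tests, a block for each genotype and replicate (15 levels) and a PB effect per genotype, with Benjamini-Hochberg adjustment over 31444 genes. Standard errors were taken as the fold change over the root of F and are approximate. CPM use the TMM-scaled total. GENCODE release 29 gave symbols, exons and introns, and 58312 IDs matched. PB and DMSO libraries were paired by replicate number, as set for this comparison. Over 11918 genes, same-numbered libraries deviated together from their group means (r 0.416, 0.225 and 0.442). Different numbers gave between -0.454 and 0.234, the highest being PB library 1 with DMSO library 2, so this check did not set pair 2 apart. Named genes were, per direction, the 12 called genes with the largest difference of mean CPM among those with non-overlapping groups and 1 sign in all pairs, up to 4 called members of each list and, of genes averaging at least 1 CPM, 6 within same-strand introns and 5 for each difference, by lowest adjusted p; other genes were chosen after their values were seen. Alternatives were no block, RLE factors, TMM without mitochondrial genes, no filter, DESeq2 1.42.0, control libraries alone, and each pair left out. Members and the 57 lists were chosen with earlier results of these data known. The fit was tested on simulated data with 100 genes changed by a log2 fold change of 1 and 100 by 0.5, in either direction. It called 68% of the former and 42% of the latter, with 3 false calls among 113, so many changes of these sizes would be missed.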

Additional observations from a re-analysis of the deposited data

Results flagged for a closer look

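The log2 fold change of PB over DMSO differed between control cells and the mean of the PHF5A 2xTL and SF3B1 T1080I lines for the genes with the lowest adjusted p, by edgeR's quasi-likelihood test of the difference with Benjamini-Hochberg adjustment over all genes. The difference, control minus pocket lines, was 1.04 for SNHG1, 2.94 for OVGP1, 1.25 for NOP14-AS1, 3.52 for ENSG00000270681 and 1.6 for ENSG00000232611. It was -1.32 for RBBP6, -1.35 for SIK2, -2.23 for GOLGA2P5, -1.97 for RSKR and -1.22 for SLF2. NOP14-AS1 is antisense to NOP14 and GOLGA2P5 is a pseudogene of GOLGA2, so counting could have split or shared their reads. In all 10 genes both SUGP1 lines had the direction of the control cells.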

How the results depend on the processing

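The same-numbered PB and DMSO libraries were treated as pairs. With no replicate block, 1395 genes were called in control, 345 higher and 1050 lower, and the difference from the pocket lines had 264, 59 higher and 205 lower; the blocked counts were 3095 and 1051. The share lower of genes over 20 exons was then 12% and of 2-exon genes 6.06%, and the share higher of single-exon genes 3.77%. With 1 pair left out the calls numbered 1744 to 1996 in control (355 to 576 higher, 1233 to 1641 lower) and 481 to 635 for the difference (82 to 111 higher, 395 to 550 lower). The shares were then 16.4% to 20.9%, 6.44% to 9.09% and 6.29% to 7.55%, and noncoding genes in same-strand introns were higher in 1.30% to 1.40%, against 2.51% with all pairs. DESeq2 called 1288 higher in control and 1589 for the difference, 357 of them higher, and the control libraries alone gave 1237 higher. Without the filter on low counts 3 genes, all higher, passed against the SUGP1 lines. MCL1, not called in any fit, changed sign without replicate 1: with 1 pair left out its log2 fold change ran between -0.025 and 0.093, against 0.04. The cause was not tested for any of these. Of 262 named genes, 159 stayed on their side of the threshold without the block, and 244 or more under each of the other scalings, the filter, DESeq2 and control libraries alone. With pair 1, 2 or 3 left out, 174, 183 and 193 did. Only 133 were called both without the block and with each pair left out. Low counts limit the snoRNAs most: mean levels of the called ones in DMSO ran from 0.126 CPM for SNORD82 to 1.26 CPM for SNORD69.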

Other observations

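Of 25 hnRNP genes, which bind nascent RNA, 5 were higher and 0 lower in PB (2 higher without the block) with a median log2 fold change of 0.09, and of 24 mRNA export genes 4 were higher and 1 lower (1 and 1 without the block). Of 36 translation initiation factors 5 were higher and 0 lower (1 higher without the block), with pair medians of 0.25, 0.14 and 0.00. Of 32 proteasome subunits 1 was called higher and 0 lower, while the median was 0.17 and 1 subunit lay below 0. The U4/U6.U5 tri-snRNP list had 1 of 24 lower and 0 higher.

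Of 31 ATF4 and integrated stress response genes 5 were lower and 2 higher (3 and 0 without the block), and of 24 NF-kB genes 5 were lower and 0 higher (2 lower without the block). Of 31 interferon genes 2 were higher and 2 lower (2 and 0 without the block), and of 26 cholesterol synthesis genes 2 were lower and 0 higher. Of 17 exon junction and nonsense-mediated decay genes 1 was lower and 0 higher. Cohesin and condensin genes, which hold and fold chromosomes, were lower in 5 of 22 cases and higher in 0 (2 lower without the block). Processed pseudogenes, intronless copies whose reads may belong to the parent gene, were called higher in 45 (0.83%, below the 2.57% of all genes) and lower in 12 of 5419. Their median log2 fold change was nevertheless 0.33, against 0.04 over all tested genes. Pair medians were 0.10, 0.31 and 0.54.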
